A study of Homo sapiens with 45 samples.

Results

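DNAH17, ICAM5, PGGHG, DHRS2, SEC31B and MEX3B are 6 genes whose messenger RNA stood higher 72 h after transfection than before it in each of 5 HEK293F lines making recombinant adeno-associated virus (AAV). They are 6 of the 60675 genes counted in each library, and all 6 were among the 21242 genes that passed the filter on low counts. The 6 were chosen by their measured 72 h levels against those at 0 h, so every value that involves 72 h is given below as a description, with no test. The rule set no numeric threshold, and the smallest difference it admitted was that of ICAM5 in the line AC1.112, where the 72 h libraries averaged 1.113-fold the 0 h libraries.

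The study followed virus production in 5 lines before transfection (0 h) and at 24 and 72 h after it, with 3 libraries in each of the 15 groups of line and time, 45 in all. HEK293F is a human embryonic kidney line grown in suspension. One line is labelled 293F with the genotype WT, AC1P is labelled WT and polyclonal, and AC1.112, AC1.203 and AC1.230 are labelled WT and clonal, so that each of these stands for 1 clone. All the 24 and 72 h groups received the same 3 plasmids (pHelper, a RepCap9 plasmid and a reporter plasmid carrying inverted terminal repeats, ITRs) with the reagent TransIT-VirusGEN, in fresh Expi293 medium. The 0 h libraries were taken before transfection, and no mock-transfected libraries were analysed here, so transfection, virus production, the change of medium and time in culture cannot be told apart. The study compared high with baseline AAV producers among its lines, and the labels used here do not say which lines those were. RNA came from whole cell pellets, in which a smaller share of cells with a transcript and less of it in each cell cannot be told apart.

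The 6 genes belong to unrelated pathways. DNAH17 encodes a heavy chain of the outer dynein arm, the motor that bends the axoneme of cilia and flagella, and is known from sperm flagella. ICAM5 (telencephalin) is a cell adhesion molecule of the immunoglobulin superfamily best known from neurons of the forebrain, where it sits on dendrites. PGGHG is the glucosidase that removes glucose from the disaccharide attached to hydroxylysine in collagen. DHRS2 is a short-chain dehydrogenase/reductase, a family of enzymes that oxidise or reduce alcohols and carbonyl compounds with a nicotinamide cofactor. SEC31B is a paralog of SEC31A, which with SEC13 forms the outer cage of COPII vesicles that carry cargo out of the endoplasmic reticulum. MEX3B is an RNA-binding protein with KH domains and a RING finger that acts on messenger RNAs after transcription.

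All 6 are protein-coding genes on different chromosomes in GENCODE release 29 on GRCh38. DNAH17 (ENSG00000187775) lies on the minus strand at chr17:78423697-78577394 and has the longest merged exon length of the set, 16.11 kb. SEC31B (ENSG00000075826) is on the minus strand at chr10:100486642-100519864 with 7.94 kb of exon, and DHRS2 (ENSG00000100867) is on the plus strand at chr14:23630115-23645639 with 7.56 kb. PGGHG (ENSG00000142102) is on the plus strand at chr11:289135-296107 with 5.26 kb of exon, and ICAM5 (ENSG00000105376) is on the plus strand at chr19:10289981-10296778 with 3.91 kb. MEX3B (ENSG00000183496) lies on the minus strand at chr15:82041778-82046141 as 1 merged exon of 4.36 kb. Neighbouring annotations overlapped exons of DNAH17 and SEC31B only. The antisense gene DNAH17-AS1 shares 1474 bases with DNAH17 exons, 9.2% of them, and PGS1 on the opposite strand shares 93 bases. The libraries were made with a stranded kit, but the strand setting of the counting is not given in the sources used here; DNAH17-AS1 had 7 counts over the 45 libraries against 28811 for DNAH17. A second annotated gene on the same strand, AL133352.1, shares 1464 bases (18.4%) with SEC31B and had 0 counts against 15265 for SEC31B.

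RefSeq (GRCh38.p14) promoter windows were read for ICAM5, DHRS2, SEC31B and MEX3B, and the bases upstream of each annotated start are shown because all 4 genes were higher at 72 h. The counts are per gene, so which start was used was not measured. Each sequence is written 5′ to 3′ on the strand of its gene, up to the last base before the start, with matches to the motifs searched in capitals. The windows are chr19:10289702-10289951 for ICAM5 (plus strand), chr14:23629865-23630114 for DHRS2 (plus strand), chr10:100519865-100520111 for SEC31B (minus strand) and chr15:82046142-82046268 for MEX3B (minus strand). The last 3 bases of the SEC31B window and the last 123 of the MEX3B window are annotated as exon by GENCODE and are not printed.
ICAM5: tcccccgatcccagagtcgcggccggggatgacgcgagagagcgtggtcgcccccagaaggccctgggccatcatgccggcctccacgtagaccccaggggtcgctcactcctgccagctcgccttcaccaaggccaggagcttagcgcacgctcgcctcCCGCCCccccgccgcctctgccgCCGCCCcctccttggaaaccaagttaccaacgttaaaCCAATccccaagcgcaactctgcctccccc
DHRS2: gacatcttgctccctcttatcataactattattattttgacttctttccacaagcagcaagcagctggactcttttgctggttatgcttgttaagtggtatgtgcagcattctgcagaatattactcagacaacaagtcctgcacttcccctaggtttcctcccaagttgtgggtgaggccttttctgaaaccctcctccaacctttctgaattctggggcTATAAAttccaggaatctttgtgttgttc
SEC31B: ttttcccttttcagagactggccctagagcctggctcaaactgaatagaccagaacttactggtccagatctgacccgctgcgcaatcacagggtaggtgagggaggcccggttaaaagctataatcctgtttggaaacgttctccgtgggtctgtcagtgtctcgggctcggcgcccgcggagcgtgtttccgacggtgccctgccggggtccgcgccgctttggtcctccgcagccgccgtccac
MEX3B: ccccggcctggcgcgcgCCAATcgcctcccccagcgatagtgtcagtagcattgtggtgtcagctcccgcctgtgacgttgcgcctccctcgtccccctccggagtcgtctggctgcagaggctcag

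Exact matches to 7 motifs were sought on both strands over the 250 bases upstream of each start. The TATA box (TATAAA) occurs in 10.7% of the 35116 promoters in the table. DHRS2 was the member that held one, and its first base lies 29 bases before the start. The CCAAT box (letters CCAAT) occurs in 32% of all promoters, and here it began 30 bases before the ICAM5 start and 233 bases before the MEX3B start. The GC box (GGGCGG) occurs in 42.6% of all promoters. ICAM5 had 2 of them on the reverse strand, beginning 90 and 67 bases before the start, and MEX3B had 4 matches beginning 83, 79, 75 and 71 bases before the start, in the bases not printed. Each of these 4 overlaps the next, so they are 1 run of repeated letters. None of the 7 motifs was found in the SEC31B window. The E-box (CACGTG) occurs in 6.3% of all promoters and was in none of the 4 windows. The same held for the cyclic AMP response element (TGACGTCA), whose letters occur in 1.6% of all promoters. The AP-1 site (TGACTCA) is found in 4.2% of all promoters, and the C/EBP-ATF site, by its letters TGATGCAAT, in 0.2%, and neither was in these windows. GC content was 68.8% for ICAM5, 68.0% for MEX3B, 60.4% for SEC31B and 43.2% for DHRS2, against a median of 58.0% (10th to 90th percentile 38% to 75.2%) over the table. The 4 members thus had no searched motif in common, and a match here describes letters, not a bound site.

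The 45 libraries held 24727028 to 59837051 counts (median 39247411), and mitochondrial counts had medians of 3.21%, 3.10% and 3.64% at 0, 24 and 72 h. The kidney-lineage markers PAX2, LHX1 and WT1 averaged at least 1 count per 1000000 (CPM) at each time. Of 5 haematopoietic markers PTPRC averaged under 0.1 CPM and CSF1R at least 1 CPM at each time, and the list summed to medians of 2.59, 1.72 and 2.67 CPM at 0, 24 and 72 h. The summed level of 7 ciliated-cell markers was 1.27 to 4.38 CPM at 0 h (median 2.06), 1.97 to 6.47 CPM at 24 h (median 3.37) and 2.31 to 6.91 CPM at 72 h (median 3.14). Fibroblast markers, of which 4 of 5 averaged at least 1 CPM at every time, summed to a median of 71.8 CPM at 0 h, 29.6 CPM at 24 h and 55.1 CPM at 72 h (ranges 35.7 to 154.6, 14.6 to 103.4 and 26.02 to 114.7). Values below are CPM after TMM scaling (trimmed mean of M values), as mean ± SD of 3 libraries where a group is summarised. Intervals of summed counts cover counting error only.

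The 6 genes reached their 72 h levels along different courses. MEX3B and, in part, DHRS2 and DNAH17 were already up at 24 h, SEC31B was higher mainly at 72 h, and ICAM5 was lower at 24 h than at 0 h in each line before standing highest at 72 h. PGGHG was lower at 24 h on average over the lines, but not in AC1.112 or AC1.230. Over the 5 lines, with each line given equal weight, 5 of the 6 passed an adjusted p of 0.05 at 24 h against 0 h by edgeR's quasi-likelihood test, 3 of them higher and 2 lower. Among all 21242 genes tested, 25.8% passed in the higher and 27.6% in the lower direction, 53.4% together. With a fold change of at least 2 asked as well, DNAH17 and MEX3B were higher and no member was lower, against 2.46% and 1.31% of all genes. DNAH17 sat at that threshold, with a log2 change of 1.01 that was 0.998 with upper-quartile scaling, 0.948 at the lowest without single libraries, 0.77 without 293F and 0.695 without AC1.230. The median log2 change of the 6 was 0.54, beside -0.006 for all genes. These 24 h tests share their 0 h libraries with the values that chose the genes.

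At 72 h against 0 h, in each of the 5 lines and for each of the 6 genes, all 3 libraries at 72 h lay above all 3 at 0 h, which is what the genes were chosen for. Over all genes, 30.3% passed in the higher direction in this contrast and 6.37% were at least 2-fold higher. The mean of the 5 lines was 6.90-fold for DNAH17 (log2 2.79, SE 0.073), 2.76-fold for SEC31B (log2 1.47, SE 0.11) and 2.76-fold for DHRS2 (log2 1.46, SE 0.036). It was 2.16-fold for PGGHG (log2 1.113, SE 0.099), 1.95-fold for MEX3B (log2 0.96, SE 0.040) and 1.45-fold for ICAM5 (log2 0.53, SE 0.058). Per kb of exon, the 0 h levels averaged from 0.305 CPM per kb for DNAH17 to 3.80 CPM per kb for PGGHG. At 72 h they ran from 1.74 CPM per kb for SEC31B to 8.22 CPM per kb for PGGHG. DNAH17, the lowest of the 6 per kb at 0 h, reached 1.95 CPM per kb at 72 h, above SEC31B in the mean of the lines. In AC1.112 the order was the reverse, with 1.755 for DNAH17 and 2.58 for SEC31B, and in the other lines DNAH17 was the higher. The SEC31B length includes the 18.4% shared with AL133352.1, and how reads there were counted is not known, so this order is uncertain.

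**Figure D1:**
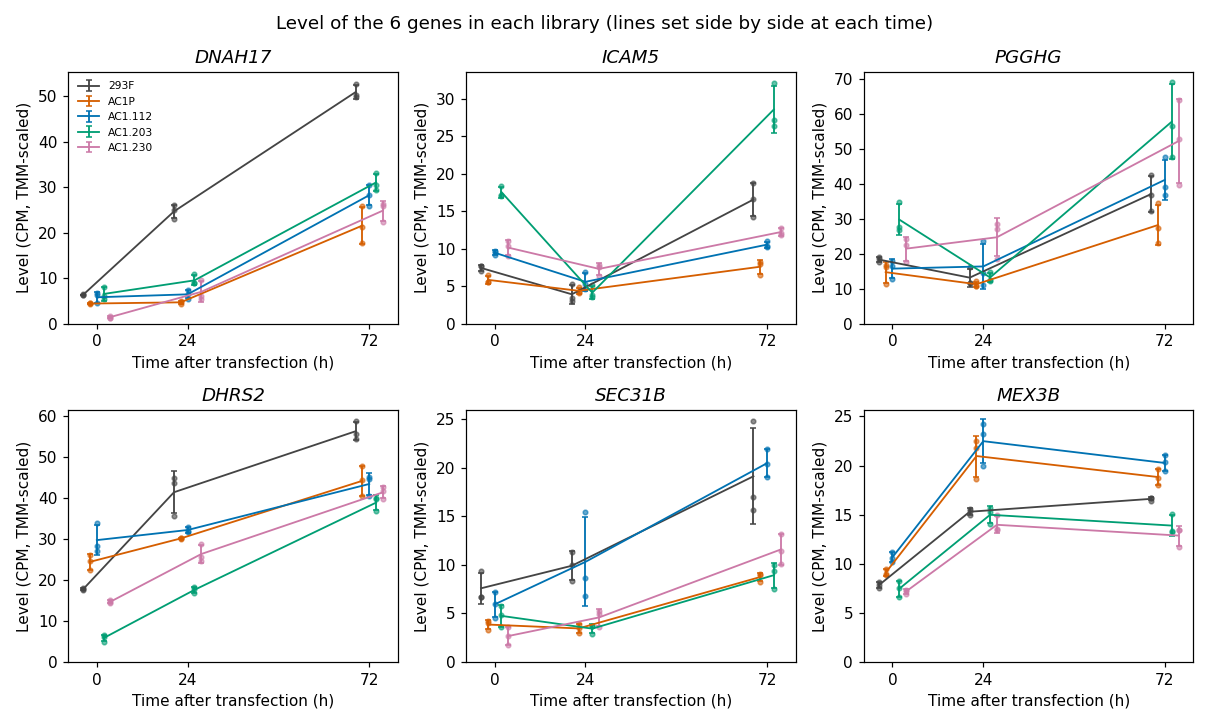
Level of each gene in every library in TMM-scaled CPM (y axis, linear from 0, different scale in each panel) against hours after transfection (x axis), with small points for libraries, lines joining group means and bars for the SD of 3 libraries. MEX3B is at its full height by 24 h, DNAH17 climbs to 72 h in each line, and ICAM5 is lower at 24 h in each line, as PGGHG is in 293F, AC1P and AC1.203.

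MEX3B stood as high at 24 h as at 72 h in the 4 AC1 lines, so for this gene the data go against calling it late induced. In 293F the libraries held 7.49, 7.83 and 8.13 CPM at 0 h, 15.6, 14.95 and 15.3 CPM at 24 h, and 16.7, 16.7 and 16.4 CPM at 72 h. In AC1P the libraries held 9.47, 8.97 and 8.82 CPM at 0 h, 21.8, 18.6 and 22.5 CPM at 24 h, and 18.8, 18.1 and 19.7 CPM at 72 h. AC1.112 gave 11.2, 10.2 and 10.6 CPM before transfection, 24.3, 23.2 and 19.9 CPM at 24 h, and 21.04, 19.4 and 20.3 CPM at 72 h. Each 24 h and 72 h library of these lines lay above each 0 h library. The AC1.203 libraries went from 6.64, 8.24 and 7.49 CPM at 0 h through 15.3, 14 and 15.7 CPM at 24 h to 15.1, 13.2 and 13.3 CPM at 72 h. For AC1.230 the values were 7.37, 7.23 and 6.93 CPM at 0 h, 13.5, 13.5 and 14.9 CPM at 24 h and 13.5, 11.7 and 13.5 CPM at 72 h. The 24 h and 72 h libraries overlapped in all 4 AC1 lines, and in 293F alone the 3 libraries at 72 h lay above the 3 at 24 h. MEX3B rose by 1.04 on the log2 scale at 24 h (2.06-fold, SE 0.040, adjusted p = 1.45e-32 by edgeR). It passed in each line, with log2 changes from 0.96 in AC1.230 to 1.21 in AC1P. The change from 24 to 72 h averaged -0.08 (SE 0.037, 0.944-fold), running from -0.16 in AC1P to 0.12 in 293F.

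DHRS2 differed less between the 5 lines at 72 h than before transfection, and its gain was largest in AC1.203, the line that began lowest. The AC1.203 libraries went from 6.48, 6.02 and 4.98 CPM at 0 h through 16.8, 18.3 and 17.7 CPM at 24 h to 39.8, 40.2 and 36.8 CPM at 72 h. For AC1.230 the values were 14.4, 15.04 and 14.7 CPM at 0 h, 28.9, 25.6 and 24.7 CPM at 24 h and 42.6, 39.8 and 41.9 CPM at 72 h. In 293F the libraries held 18.1, 17.5 and 17.7 CPM at 0 h, 35.6, 45.02 and 43.8 CPM at 24 h, and 54.5, 58.9 and 55.8 CPM at 72 h. In these 3 lines, and in AC1P as well, the libraries of the 3 times did not overlap. AC1P gave 26.2, 22.5 and 24.7 CPM before transfection, 30.3, 29.96 and 30.3 CPM at 24 h, and 44.4, 40.6 and 47.8 CPM at 72 h. In AC1.112 the libraries held 28.3, 33.9 and 27.1 CPM at 0 h, 33.1, 31.8 and 31.9 CPM at 24 h, and 44.7, 45.3 and 40.5 CPM at 72 h. AC1.112 began as the line with most DHRS2 and its 0 h and 24 h libraries overlapped. The highest line mean was 5.11-fold the lowest at 0 h, 2.36-fold at 24 h and 1.45-fold at 72 h. By 24 h DHRS2 rose by 0.82 on the log2 scale (1.76-fold, SE 0.036, adjusted p = 7.23e-29 by edgeR). It rose by 1.604 in AC1.203, 1.22 in 293F, 0.84 in AC1.230 and 0.31 in AC1P, and AC1.112 did not pass (0.11, SE 0.077, adjusted p = 0.316). From 24 to 72 h it was a further 1.35-fold to 2.21-fold higher, the largest step being that of AC1.203. Among the members whose promoter window was read, DHRS2 alone held TATAAA, letters found in 10.7% of all promoters. Any part of it in these changes was not tested.

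DNAH17 was the member with the largest 72 h difference, and the lines differed in how much of it was present by 24 h. In 293F the libraries held 6.33, 6.42 and 6.33 CPM at 0 h, 24.9, 26.1 and 23.1 CPM at 24 h, and 52.8, 50.3 and 49.8 CPM at 72 h. The AC1.230 libraries went from 1.7, 1.32 and 1.34 CPM at 0 h through 9.598, 5.32 and 6.09 CPM at 24 h to 26.3, 22.4 and 25.9 CPM at 72 h. In both of these lines the libraries of the 3 times did not overlap. In AC1P the libraries held 4.46, 4.44 and 4.36 CPM at 0 h, 4.72, 4.402 and 4.95 CPM at 24 h, and 17.7, 21.3 and 25.8 CPM at 72 h. AC1.112 gave 4.45, 6.21 and 6.74 CPM before transfection, 6.52, 5.52 and 7.31 CPM at 24 h, and 25.98, 28.4 and 30.4 CPM at 72 h. For AC1.203 the values were 5.33, 8.16 and 6.104 CPM at 0 h, 8.87, 8.88 and 10.8 CPM at 24 h and 29.5, 30.5 and 33.2 CPM at 72 h. The 3 times did not overlap in AC1.203 either, though its 24 h libraries were close to those at 0 h. In AC1P and AC1.112 the 24 h libraries overlapped those at 0 h, and nearly the whole difference lay between 24 and 72 h. DNAH17 rose by 1.01 on the log2 scale at 24 h over the 5 lines (2.01-fold, SE 0.079, adjusted p = 1.72e-13 by edgeR). Within lines it rose by 2.27 in AC1.230 (SE 0.21), by 1.96 in 293F (SE 0.15) and by 0.56 in AC1.203 (SE 0.16, adjusted p = 0.00574). The changes of 0.09 in AC1P (SE 0.18, adjusted p = 0.804) and 0.18 in AC1.112 (SE 0.17, adjusted p = 0.511) did not pass. Without the first 0 h library of AC1.203, that line's change was 0.44 with an adjusted p of 0.0565. At 72 h against 24 h DNAH17 was 4.59-fold higher in AC1P and 4.38-fold in AC1.112, and 2.06-fold higher in 293F. The 72 h level of AC1.230 was 16.9-fold its 0 h level, from the lowest 0 h libraries of any line, which held 43 to 75 DNAH17 reads. Of the 7 ciliated-cell markers, whose summed level was also higher at 24 and 72 h than at 0 h by its median, TPPP3 averaged at least 1 CPM at 24 and 72 h and no other did at any time. CFAP126 averaged under 0.1 CPM at every time and FOXJ1 at 0 h alone. The part of these markers in the DNAH17 result was not tested.

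SEC31B stood higher at 72 h than at either earlier time in each line, with a wide spread between libraries. For 293F the values were 6.66, 6.68 and 9.42 CPM at 0 h, 10.03, 8.37 and 11.3 CPM at 24 h and 16.95, 24.8 and 15.7 CPM at 72 h. In AC1P the libraries held 4.22, 4.01 and 3.32 CPM at 0 h, 3.495, 3.899 and 2.96 CPM at 24 h, and 8.24, 8.97 and 9.04 CPM at 72 h. AC1.112 gave 7.204, 4.57 and 6.01 CPM before transfection, 8.68, 6.77 and 15.5 CPM at 24 h, and 19.04, 20.5 and 21.97 CPM at 72 h. The third AC1.112 library at 24 h stood apart from its group, and it was also that group's highest for DNAH17, ICAM5 and PGGHG. The AC1.203 libraries went from 4.83, 5.799 and 3.599 CPM at 0 h through 3.71, 2.898 and 3.67 CPM at 24 h to 9.33, 7.49 and 9.999 CPM at 72 h. In AC1.230 the libraries held 2.698, 3.59 and 1.71 CPM at 0 h, 5.26, 3.57 and 4.92 CPM at 24 h, and 11.5, 10.1 and 13.2 CPM at 72 h. No line had its 24 h libraries all above those at 0 h, whereas all 72 h libraries lay above all 24 h libraries in each line. Over the 5 lines the 24 h change of SEC31B was 0.27 (SE 0.12) and did not pass by edgeR (adjusted p = 0.0556), while DESeq2 gave 0.27 with an adjusted p of 0.0351. SEC31B passed in AC1.112 (0.80, SE 0.25, adjusted p = 0.0167) and AC1.230 (0.78, SE 0.28, adjusted p = 0.0361). Leaving out the third AC1.112 library at 24 h gave 0.38 (adjusted p = 0.296) and leaving out the third AC1.230 library at 0 h gave 0.56 (adjusted p = 0.188). The AC1.112 call was lost on leaving out 2 of that line's 9 libraries in turn, and the AC1.230 call on leaving out 4 of 9. The AC1.230 call was also lost with no filter (adjusted p = 0.0638) and with only the libraries compared (adjusted p = 0.0543), so both calls are marginal. From 24 to 72 h SEC31B was 1.94-fold to 2.62-fold higher in the 5 lines.

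ICAM5 fell at 24 h in every line and then stood above its starting level at 72 h, though only slightly in AC1.112 and AC1.230. The AC1.203 libraries went from 18.4, 17.1 and 17.2 CPM at 0 h through 3.78, 3.51 and 5.13 CPM at 24 h to 27.3, 26.4 and 32.2 CPM at 72 h. In 293F the libraries held 7.69, 6.99 and 7.64 CPM at 0 h, 3.36, 3.05 and 5.35 CPM at 24 h, and 16.7, 18.8 and 14.3 CPM at 72 h. AC1.112 gave 9.76, 9.12 and 9.55 CPM before transfection, 4.59, 5.25 and 6.93 CPM at 24 h, and 10.4, 11.01 and 10.3 CPM at 72 h. The 3 times did not overlap in any of these lines, and AC1.203, which began highest, fell the furthest. For AC1.230 the values were 10.3, 9.08 and 11.04 CPM at 0 h, 6.43, 7.89 and 7.62 CPM at 24 h and 12.8, 12.1 and 11.8 CPM at 72 h. In AC1P the libraries held 5.54, 5.57 and 6.44 CPM at 0 h, 4.15, 4.18 and 4.83 CPM at 24 h, and 6.56, 8.001 and 8.25 CPM at 72 h. In these 2 lines, too, the 3 times did not overlap, and each 24 h library lay below each 0 h library. ICAM5 fell by 0.93 on the log2 scale over the 5 lines (0.525-fold, SE 0.062, adjusted p = 1.77e-19 by edgeR). It fell by 2.08 in AC1.203, 0.92 in 293F, 0.76 in AC1.112, 0.48 in AC1.230 and 0.41 in AC1P. The AC1P call (adjusted p = 0.0353) was lost on leaving out any of its 3 libraries at 0 h or the first or second at 24 h, with adjusted p from 0.0526 to 0.141, and that of AC1.230 on leaving out its first 24 h library (adjusted p = 0.0504). At 72 h ICAM5 was 6.87-fold its 24 h level in AC1.203 and 4.24-fold in 293F, and 1.68-fold to 1.89-fold in the other lines. Of 8 neuronal markers, NEFL, NEFM and INA averaged at least 1 CPM at each time. Their list summed to a median of 5183 CPM at 0 h, 3739 CPM at 24 h and 3527 CPM at 72 h (ranges 133.1 to 5996, 139.2 to 4359 and 99.4 to 4503), and its part in the ICAM5 result was not tested.

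PGGHG had a lower mean at 24 h than at 0 h in 3 lines, as ICAM5 did, and a slightly higher one in the other two. The AC1.203 libraries went from 27.5, 34.9 and 26.8 CPM at 0 h through 12.2, 12.6 and 14.8 CPM at 24 h to 56.4, 47.8 and 69.02 CPM at 72 h. For 293F the values were 17.6, 19.1 and 18.4 CPM at 0 h, 11.7, 11.6 and 16.2 CPM at 24 h and 36.7, 42.5 and 32.1 CPM at 72 h. In AC1P the libraries held 16.1, 16.8 and 11.2 CPM at 0 h, 10.9, 12.2 and 10.8 CPM at 24 h, and 22.99, 27.3 and 34.4 CPM at 72 h. In these lines each 24 h library lay below each 0 h library, apart from 1 library of AC1P at 0 h, which lay among those at 24 h. AC1.112 gave 17.9, 12.7 and 16.6 CPM before transfection, 14.5, 11.1 and 23.5 CPM at 24 h, and 36.7, 38.96 and 47.6 CPM at 72 h. In AC1.230 the libraries held 22.4, 24.3 and 17.6 CPM at 0 h, 27.1, 18.5 and 28.5 CPM at 24 h, and 52.9, 39.8 and 63.9 CPM at 72 h. There the 0 h and 24 h libraries overlapped. PGGHG fell by 0.36 on the log2 scale over the 5 lines (0.781-fold, SE 0.10, adjusted p = 0.00416 by edgeR). AC1.203 was the line in which it passed (-1.16, 0.446-fold, SE 0.23, adjusted p = 0.000105). Without AC1.203 the mean of the other 4 lines was -0.15 with an adjusted p of 0.322, so the fall over the lines rests on that line. The 72 h level was 2.10-fold to 4.36-fold that at 24 h, with the largest difference in AC1.203.

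**Figure D2:**
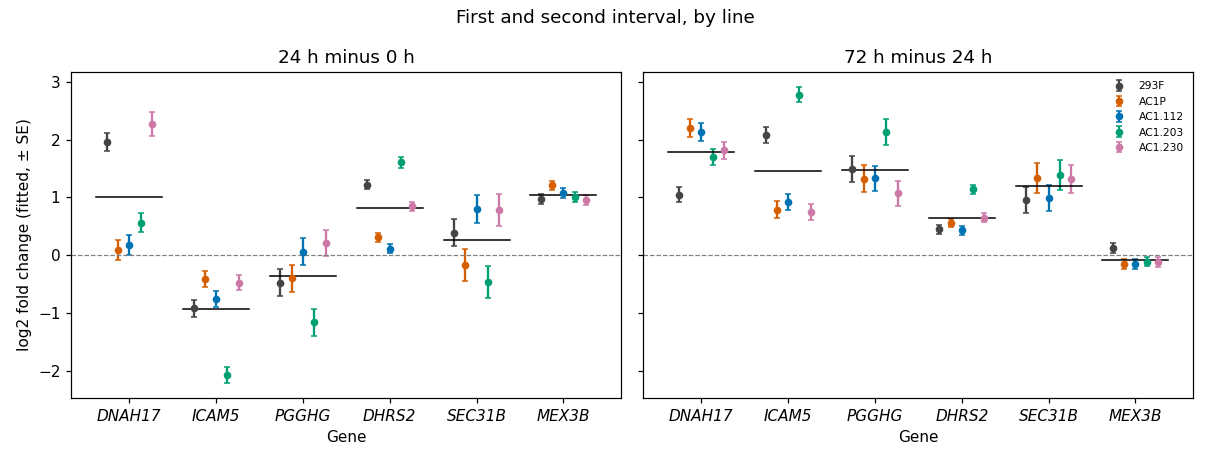
Fitted log2 fold change (y axis) of each gene (x axis) from 0 to 24 h (left) and from 24 to 72 h (right), with a point and SE bar for each line and a black bar for the mean of the 5 lines. From 0 to 24 h DNAH17 spans 0.09 to 2.27 across lines while MEX3B spans 0.96 to 1.21, and from 24 to 72 h only MEX3B has a mean below 0 (-0.08).

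The size of the 24 h change differed between lines for 5 of the 6 genes by an interaction F test with 4 degrees of freedom, against 43.9% of all genes tested. The adjusted p by edgeR was 2.42e-17 for DHRS2, 4.77e-10 for ICAM5, 6.68e-10 for DNAH17, 0.00594 for PGGHG and 0.0174 for SEC31B. MEX3B did not pass (adjusted p = 0.359), and its changes in the 5 lines ran from 0.96 to 1.21 on the log2 scale. The calls for ICAM5, PGGHG and SEC31B were lost without AC1.203 (adjusted p = 0.102, 0.236 and 0.149), and that for SEC31B also without AC1P (adjusted p = 0.0526). Line by line, 4 of the 6 genes passed at 24 h in 293F, 3 in AC1P, 3 in AC1.112, 5 in AC1.203 and 5 in AC1.230, where 41.9%, 19.4%, 23.4%, 41.9% and 26.9% of all genes did.

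The lines also differed in how much of each transcript they held. Before transfection all 6 genes differed between the 5 lines by an F test (adjusted p from 3.83e-32 for DHRS2 to 0.00105 for PGGHG by edgeR), as did 80.8% of all genes. At 24 h all 6 again passed (adjusted p from 7.99e-21 for DHRS2 to 0.000245 for PGGHG), as did 81.1% of all genes. For PGGHG the adjusted p was 0.155 at 0 h without AC1.203 and 0.181 at 24 h without AC1.230.

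DNAH17 at 0 h stood at 6.53 ± 1.47 CPM in AC1.203, 6.36 ± 0.050 in 293F, 5.801 ± 1.198 in AC1.112, 4.42 ± 0.053 in AC1P and 1.45 ± 0.22 in AC1.230. Neighbouring lines in that order overlapped except AC1P and AC1.230. By 24 h 293F stood alone with 24.7 ± 1.495 CPM, and the next line, AC1.203, had 9.53 ± 1.12 CPM. At 72 h 293F was again apart with 51.0 ± 1.63 CPM, while the AC1 lines ran in overlapping steps from 31.1 ± 1.91 CPM in AC1.203 to 21.6 ± 4.06 CPM in AC1P.

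DHRS2 gave the clearest order before transfection, with no overlap between neighbours, from 29.8 ± 3.62 CPM in AC1.112 through AC1P, 293F and AC1.230 to 5.83 ± 0.77 CPM in AC1.203. At 24 h 293F led with 41.5 ± 5.09 CPM and AC1.203 was last with 17.6 ± 0.73 CPM, again with no overlap between neighbours. At 72 h 293F was apart from the rest with 56.4 ± 2.24 CPM, and the 4 AC1 lines overlapped in turn between 44.3 ± 3.62 and 38.9 ± 1.87 CPM. From 0 to 24 h 293F thus moved to the top, while the AC1 lines kept their order among themselves. At 72 h AC1P and AC1.112, whose libraries overlapped, had changed places.

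ICAM5 was highest in AC1.203 at 0 h (17.6 ± 0.73 CPM) and lowest in AC1P (5.85 ± 0.51 CPM), with overlap only between AC1.230 and AC1.112. At 24 h the order was AC1.230, AC1.112, AC1P, AC1.203 and 293F, from 7.31 ± 0.78 to 3.92 ± 1.25 CPM, and all neighbours overlapped. At 72 h AC1.203 was again first with 28.6 ± 3.10 CPM and AC1P last with 7.60 ± 0.91 CPM, with no overlap between neighbours. AC1.203 thus passed from the highest ICAM5 level to the lower end of the lines and back.

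For PGGHG the highest line held 2.02-fold the lowest at 0 h, 2.19-fold at 24 h and 2.05-fold at 72 h, and neighbours overlapped except AC1.203 over AC1.230 at 0 h. SEC31B was highest in 293F and AC1.112 at all times, at 7.59 ± 1.59 and 5.93 ± 1.32 CPM at 0 h and 19.1 ± 4.95 and 20.5 ± 1.47 CPM at 72 h. These 2 lines overlapped each other at each time and stood clear of AC1.230, the next, at 24 and 72 h. MEX3B kept AC1.112 first and AC1P second at each time, with AC1.230 last. At 0 h the AC1.112 level was 10.7 ± 0.51 CPM and that of AC1.230 was 7.18 ± 0.22 CPM, a 1.49-fold span.

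**Figure D3:**
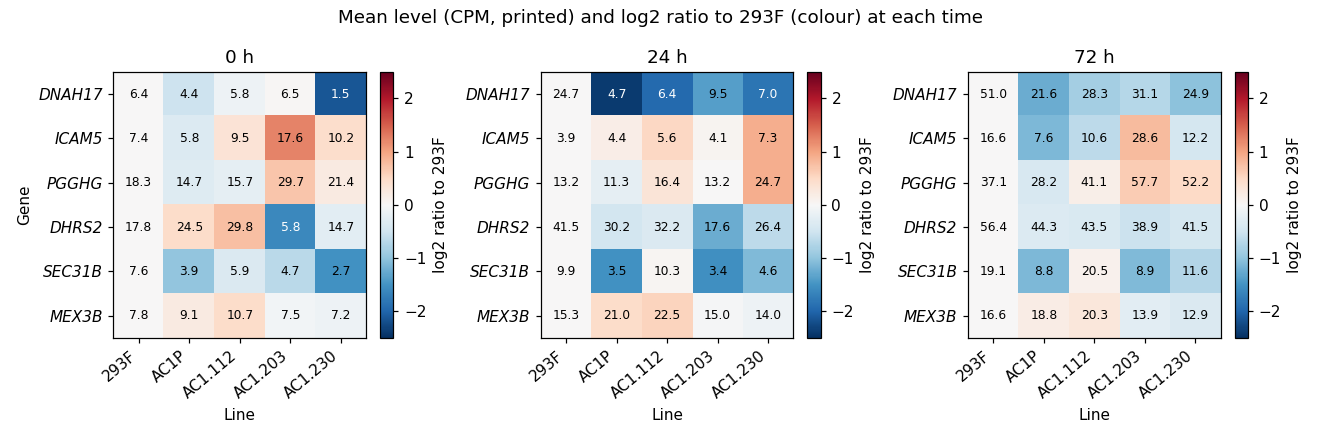
Mean level of each gene (rows) in each line (columns) at 0, 24 and 72 h, in TMM-scaled CPM printed in the cells (3 libraries each), with colour for the log2 ratio to 293F. DNAH17 is below 293F in all 4 AC1 lines at 24 and 72 h, and ICAM5 in AC1.203 is above 293F at 0 and 72 h but close to it at 24 h.

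Set against 293F, the mean of the 4 AC1 lines was lower for DNAH17 and SEC31B. DNAH17 was lower by 1.88 on the log2 scale at 24 h (0.273-fold, SE 0.11, adjusted p = 5.84e-18 by edgeR), with all 12 AC1 libraries below the 3 of 293F. At 0 h its difference was -0.69 (SE 0.14, adjusted p = 2.92e-05), which without AC1.230 was -0.22 with an adjusted p of 0.0804. SEC31B differed by -0.87 at 0 h (SE 0.19, adjusted p = 0.000164) and -1.03 at 24 h (SE 0.18, adjusted p = 9.01e-06). AC1.112 did not share this difference at 24 h, when its mean was 10.3 CPM beside 9.91 CPM in 293F, and it overlapped 293F at both times. The other AC1 lines lay below 293F at 24 h without overlap. DHRS2 differed by -0.68 at 24 h (SE 0.057, adjusted p = 1.25e-16), whereas at 0 h its -0.17 (adjusted p = 0.0161) turned to 0.30 (adjusted p = 3.95e-05) without AC1.203. ICAM5 was higher by 0.42 at 0 h (adjusted p = 0.000477) and 0.41 at 24 h (adjusted p = 0.00198). The first was 0.14 (adjusted p = 0.252) without AC1.203, and the second 0.25 (adjusted p = 0.079) without AC1.230. The second also ran from 0.27 to 0.70 on leaving out single 293F libraries at 24 h, and was lost without the first (adjusted p = 0.0501) or the second of them (adjusted p = 0.0739). MEX3B passed at 24 h (0.21, adjusted p = 0.00401) and not at 0 h (0.12, adjusted p = 0.148). The 24 h call was lost with upper-quartile scaling (0.12, adjusted p = 0.0998), without AC1P (0.13, adjusted p = 0.0903) and without AC1.112 (0.11, adjusted p = 0.148), and a call at 0 h was gained without AC1.203 or AC1.230 (adjusted p = 0.0298 and 0.0185). PGGHG passed at neither time (0.10, adjusted p = 0.64, and 0.26, adjusted p = 0.237). In all, 4 of 6 genes passed at 0 h and 5 of 6 at 24 h, where 66.4% of all genes did at each time.

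The relatives of each gene were read from lists of its family or pathway, and their changes were tested over the 5 lines. Of all genes, 25.8% rose and 27.6% fell at 24 h against 0 h, and each family's 24 h count stands beside these shares. Of 18 other axonemal dynein arm genes tested, 4 rose and 4 fell at 24 h (median log2 change 0.11), and 10 rose and none fell at 72 h against 0 h (median 0.31, beside 0.03 for all genes), where 30.3% of all genes rose and 29.5% fell. DNAH12, an inner-arm heavy chain, rose by 1.26 at 24 h (SE 0.31, adjusted p = 0.000416 by edgeR) and DNAH3, also a heavy chain, by 0.92 (SE 0.20, adjusted p = 6.43e-05). Both were scarce, with 86 and 261 counts summed over the 15 libraries at 0 h and 188 and 719 at 24 h. DNAI2, an outer-arm intermediate chain, passed at 24 h with 6 counts at 0 h, 26 at 24 h and 67 at 72 h in all. Its ratio of depth-scaled sums at 24 h against 0 h was 4.07 (95% counting interval 1.64 to 12.1). DNAI2 had no count in 4 of the 15 groups, so no fitted fold is given for it at either time and its call at 24 h, 1 of the 4 that rose, rests on few reads. At 72 h DNAH12 stood 1.87 above 0 h on the log2 scale (SE 0.30, adjusted p = 1.84e-07 by edgeR) beside 2.79 for DNAH17. Of the 10 that rose at 72 h, DNAH2 and DNAI1 also rest on few reads. They had 46 and 45 counts summed over the 15 libraries at 0 h, and 194 and 118 at 72 h. DNAH2 had no count in 1 of the 15 groups.

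The 4 other ICAM genes, which encode adhesion molecules that bind integrins, did not change as 1 group. ICAM4 fell by 1.27 at 24 h (SE 0.16, adjusted p = 9.68e-10 by edgeR) and ICAM2 by 0.54 (SE 0.14, adjusted p = 0.00057), as ICAM5 did, and no ICAM gene rose at 24 h. At 72 h against 0 h ICAM1 rose by 1.18 (SE 0.21, adjusted p = 2.17e-06) from 180 counts in all at 0 h, while the other 3 fell. Among the 5 other genes of hydroxylysine modification, PLOD3 (-0.31), PLOD2 (-0.14) and COLGALT1 (-0.06) fell at 24 h and none rose. PLOD genes encode the lysyl hydroxylases and COLGALT1 the galactosyltransferase that build the sugar-bearing residue from which PGGHG removes glucose. At 72 h 4 of these 5 fell and 1 rose, all by less than 0.2 on the log2 scale, where 29.5% and 30.3% of all genes did.

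Of 11 other DHRS genes tested, 8 fell and DHRS13 alone rose at 24 h (0.09, adjusted p = 0.0185 by edgeR), when DHRS2 rose. In that contrast 27.6% of all genes fell and 25.8% rose. DHRS3, a retinal reductase, fell by 0.64 (SE 0.18), DHRS11 by 0.53 (SE 0.038) and DHRS1 by 0.39 (SE 0.084). At 72 h against 0 h, where 29.5% of all genes fell, 7 of the 11 fell and DHRS3 rose by 0.45 (SE 0.16). In the COPII coat, 5 of 13 other genes rose and 5 fell at 24 h, beside the same 25.8% and 27.6% of all genes. SEC24A (0.22), SEC16A (0.21) and SAR1A (-0.15) were the furthest from 0. At 72 h 10 of the 13 fell, beside the same 29.5% of all genes, and 2 rose (median -0.19). SEC31A, the paralog of SEC31B, fell by 0.23 (SE 0.021, adjusted p = 1.21e-14). SEC31A was the more abundant of the pair, at 16.5 CPM per kb of exon at 0 h and 14.1 at 72 h, beside 0.624 and 1.74 CPM per kb for SEC31B. All 3 other MEX3 genes passed at 24 h, as did 53.4% of all genes. MEX3C rose by 0.59 (SE 0.030, adjusted p = 1.36e-25 by edgeR), MEX3D rose by 0.18 and MEX3A fell by 0.17. MEX3C, an RNA-binding ubiquitin ligase, was the one that moved in the direction of MEX3B by more than 0.5.

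**Figure D4:**
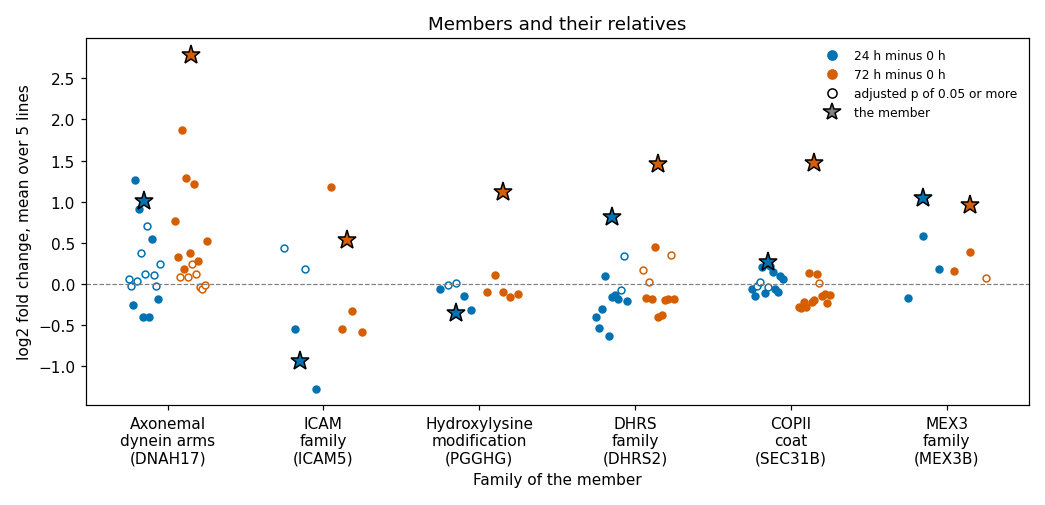
log2 fold change averaged over the 5 lines (y axis) for each member (star) and its relatives (circles, filled where the adjusted p was under 0.05), for 24 h minus 0 h in blue and 72 h minus 0 h in orange, with 2 dynein genes left out that had a group with no count. The 6 stars at 72 h lie at 0.53 to 2.79, chosen to be above 0. The medians of all relatives tested, with the 2 left out of the plot counted, lie between -0.43 and 0.31.

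The genes whose group means followed each member most closely were taken by Pearson correlation of mean log2 CPM over the 15 groups, among 11848 other protein-coding genes. These groups share lines and times, and the coefficients are a description. DNAH17 was closest to TBC1D3K (r = 0.97), TBC1D3 (0.963) and TBC1D3G (0.963), which are near-identical copies whose reads may have been split among them, so that these 3 values are uncertain. SEC31B was closest to TTLL3 (0.958), SH2B1 (0.952) and LENG8 (0.948), and PGGHG to CDK10 (0.954), MYO15B (0.926) and GALT (0.909). ICAM5 was closest to AGAP2 (0.944), HAGHL (0.925) and DOCK6 (0.914), and MEX3B to TNRC6C (0.94), SSH2 (0.926) and E2F8 (0.925). For DHRS2 the closest were TP73 (0.915), GPS2 (0.9) and KSR1 (0.859). No gene appeared under more than 1 member. Among the 6 themselves the closest pairs were ICAM5 with PGGHG (0.86), DNAH17 with SEC31B (0.847) and DHRS2 with MEX3B (0.709), and the least alike were ICAM5 and MEX3B (-0.27).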

How the data were processed

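Messenger RNA was measured in 45 libraries of HEK293F cells (5 lines, 3 times, 3 libraries each). The deposited files hold raw counts for 60675 Ensembl genes, which the authors made with HISAT2, Subread and featureCounts on GRCh38, per the submitters' processing notes. Tool versions, the strand setting and the annotation were not given in the sources used here. Symbols matched 56558 IDs, and GENCODE release 29 gave coordinates for 57055. Reads of overlapping or near-identical genes may be shared.

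Counts were analysed in R 4.3.3 with edgeR 4.0.16: filterByExpr by group (at least 10 counts, and 15 in total), TMM scaling, and the robust quasi-likelihood fit (glmQLFit, glmQLFTest) applied to all libraries and genes together, with Benjamini-Hochberg adjustment over 21242 genes. All adjusted p-values are from edgeR unless DESeq2 1.42.0 is named. A gene passed at an adjusted p under 0.05, and rose or fell in that sense. CPM are TMM-scaled, and per kb uses the merged exon length. All 6 members were described. Likeness took the 3 protein-coding genes with the highest correlation among those averaging 1 or more in log2 CPM. From each family list up to 3 genes with the largest change among those that passed at 24 h were named. ICAM1, DHRS13, SEC31A, DNAH2 and DNAI1 were named after their values were seen.

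The members and lists were chosen with earlier results of these data known. Nothing in the labels ties the libraries of a group to separate cultures. The p-values then measure only the spread between these libraries, which may be technical. No pair of libraries agreed within sampling noise (chi-square per gene 4.08 or more in 45 pairs). On simulated counts for the 24 h comparison, 64% of 50 genes changed 1.5-fold and 80% of 50 genes changed 2-fold were recovered, of 21242 run. Alternatives were DESeq2, other scalings, no filter, only the libraries compared, replicate blocks, and leaving out each library or line.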

Additional observations from a re-analysis of the deposited data

Results flagged for a closer look

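The change from 0 to 24 h differed in size between the 5 lines for 5 genes, by edgeR's interaction F test with 4 degrees of freedom adjusted over all genes. DHRS2 had an adjusted p of 2.42e-17, with log2 changes from 0.11 in AC1.112 to 1.604 in AC1.203. ICAM5 had 4.77e-10, with changes from -2.08 in AC1.203 to -0.41 in AC1P. DNAH17 had 6.68e-10, with changes from 0.09 in AC1P to 2.27 in AC1.230. PGGHG had 0.00594, with changes from -1.16 in AC1.203 to 0.21 in AC1.230. SEC31B had 0.0174, with changes from -0.46 in AC1.203 to 0.80 in AC1.112. Of all genes tested, 43.9% passed the same test.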

How the results depend on the processing

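Counts of genes called stayed within 1.5 times under each alternative run (800 genes at 24 h against 0 h, 778 to 832 on leaving out 1 library). Libraries of the same line and replicate number at different times had a median correlation of deviations of 0.022 over 45 pairs (15 over 0.1). With different numbers it was -0.006 over 90 pairs (20 over 0.1), and 19 of 45 libraries correlated best with their own number. Between lines at the same time it was 0.036 over 90 pairs of the same number (31 over 0.1). It was -0.025 there over 180 pairs of different numbers (45 over 0.1). The check cannot exclude a pairing or a batch by number. With the replicate number as a block, 801 genes were called at 24 h and no member's call changed. With a block within line, 790 were called, and SEC31B in AC1.230 was lost (adjusted p = 0.0623).

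Where a call or value moved, the cause was not tested. At 24 h against 0 h over the lines, SEC31B passed with DESeq2 (0.27), without AC1P (0.38) and without AC1.203 (0.45), and on leaving out single libraries it ranged from 0.18 to 0.32 (adjusted p 0.0171 to 0.129, passing in 11 of 45). PGGHG was lost without AC1.203 (-0.15). The interaction p was 0.0526 for SEC31B without AC1P, and without AC1.203 it was 0.102 for ICAM5, 0.236 for PGGHG and 0.149 for SEC31B. Between lines, PGGHG was lost at 0 h without AC1.203 (edgeR adjusted p = 0.155) and at 24 h without AC1.230 (adjusted p = 0.181).

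For the AC1 lines against 293F at 0 h, leaving out AC1.203 turned DHRS2 (0.30) and PGGHG (-0.10) to the other sign, lost ICAM5 (0.14) and brought MEX3B past the threshold (0.18). Leaving out AC1.230 lost DNAH17 (-0.22) and DHRS2 (-0.14) and brought MEX3B past (0.20). DHRS2 was lost with only the libraries compared (-0.16), and ranged from -0.20 to -0.14 without single libraries. At 24 h MEX3B was lost with upper-quartile scaling (0.12), without AC1P (0.13) and without AC1.112 (0.11), and ICAM5 without AC1.230 (0.25). ICAM5 ranged from 0.27 to 0.70 without single libraries, and was lost without the first (0.31) or second (0.27) 293F library at 24 h.

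Of the described 72 h values, DHRS2 at 72 h against 0 h was 1.61 without AC1P, 1.69 without AC1.112 and 1.14 without AC1.203, and DNAH17 was 2.46 without AC1.230. At 72 h against 24 h, without AC1.203, ICAM5 was 1.12 and DHRS2 0.51. Within AC1.112 at 24 h, the PGGHG change, which did not pass, ranged from -0.30 to 0.27 and was -0.08 without the second 0 h library and -0.30 without the third 24 h library. Depth limits the scarcest values most: DNAH17 in AC1.230 and SEC31B in AC1.230 at 0 h rest on as few as 43 and 55 reads a library.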
